A study of Mus musculus with 2 samples.

Results

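Oxidative phosphorylation genes encode the respiratory chain and the ATP synthase of the inner mitochondrial membrane. They were taken from the lens transcriptome table as protein-coding rows whose symbols begin with mt-Nd, mt-Co, mt-Cytb, mt-Atp, Nduf, Uqcr, Cox followed by a digit, or Atp5, or are Sdha, Sdhb, Sdhc or Sdhd, and whose names do not contain -ps. This rule found 111 of 21673 genes, 12 encoded by mitochondrial DNA and 99 by nuclear genes. Of the 99, 75 were sorted as common subunits, 18 as assembly or accessory factors, and 6 as tissue-restricted isoforms of complex IV subunits.

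The lenses came from C57BL/6 mice at postnatal day 60, and mRNA was sequenced in 2 libraries, 1 per genotype. The Msx2 CKO library came from mice with both Msx2 alleles floxed and 1 copy of the Le-Cre transgene, whose Cre enzyme cuts floxed alleles in lens and in other eye tissues derived from surface ectoderm. The Msx2 WT library came from mice with both Msx2 alleles floxed and no Cre, so Cre itself also differs between the libraries. Whether lenses of several animals were pooled in a library is not stated in the labels. With 1 library per genotype no test was possible, no difference was set against variation between animals, and every interval below covers counting error only.

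Electrons enter the chain at complex I (NADH dehydrogenase) and complex II (succinate dehydrogenase), pass through complex III and cytochrome c to complex IV (cytochrome c oxidase), and the proton gradient built on the way drives complex V (ATP synthase). Complexes I, III, IV and V are each built from subunits of both genomes, while complex II is wholly nuclear. In the lens, mitochondria are held by the epithelium and the young outer fibres, because maturing fibres degrade their organelles.

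Levels are in FPKM, that is, fragments divided by gene length in kilobases and by a scaled library size. Reads recovered from the values numbered 17165504 in CKO and 20784737 in WT. Genes with a mean of 1 FPKM or more across the pair of libraries are called measured, and 107 of the 111 members were. Log2 ratios are of FPKM + 1, CKO over WT, so that ratios of low genes are understated, and the size rule asks for 2-fold on that scale. Msx2, the targeted gene, was at 0.0392 FPKM in CKO and 6.21 FPKM in WT. Crystallin reads made up 40.1% of the CKO library and 61.6% of the WT library. The choice of scaling moves every ratio: library totals alone, in place of the deposited scaling, moved the median log2 ratio of all measured genes up by 0.70.

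The libraries also differed in markers of cells other than lens, in lists chosen with earlier results of these data known. Many of these markers were under 1 FPKM in WT and were measured through CKO alone, where they had to be higher, so their counts are given as descriptions beside the sums. Photoreceptor markers were higher by the size rule in 28 of 28 measured genes, 19 of these under 1 FPKM in WT, and summed to 1252 FPKM in CKO and 72.5 FPKM in WT. Their reads were 0.657% of the CKO library and 0.0228% of the WT library, with Pde6h alone at 0 in WT. For the inner retina and its glia 10 of 14 measured markers were higher, 7 of them under 1 FPKM in WT, and the list summed to 187 FPKM in CKO and 55.6 FPKM in WT. Of 10 measured leukocyte markers 8 were higher, 5 of them under 1 FPKM in WT, and H2-Eb1, under 1 FPKM in CKO, was lower. Of 3 measured markers of cornea and conjunctiva 2 were higher, 1 of them under 1 FPKM in WT, and that list summed to 336 FPKM in CKO and 14.0 FPKM in WT. Lens fibre markers were lower in 10 of 14 measured genes, and all 14 had log2 ratios below 0. Lens epithelium markers were lower in 2 and higher in 1 of 8, and 7 of the 8 lay below 0. They summed to 139 FPKM in CKO and 243 FPKM in WT, with a median of -0.65, or 0.11 with library totals alone. In a list for ciliary body, iris and pigmented cells, 2 of 5 measured genes were lower and 0 higher. Of the lower genes 1 was under 1 FPKM in CKO, and this list summed to 14.6 FPKM in CKO and 33.3 FPKM in WT. Reads of Xist, which silences an X chromosome in female cells, numbered 16251 in CKO and 35 in WT. Those of Y-linked Eif2s3y numbered 0 in CKO and 819 in WT. By these reads the CKO library was female and the WT library mainly male. Sex therefore cannot be told apart from genotype in any value below. Rod photoreceptors are rich in mitochondria, as background. The part of these differences in the results below was not tested.

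The sequences that bear most on the values belong to mitochondrial genes with near-identical copies in the nuclear genome. On chromosome 1 of GRCm38, between 24611535 and 24616197, GENCODE release M21 annotates 6 pseudogenes that match stretches of mitochondrial DNA. Over their placed length, Gm28661 matched 681 bases of mt-Co2, Gm10925 matched 678 bases of mt-Atp6 and Gm28437 matched 783 bases of mt-Co3, with 0 differences in each. Gm28439 matched 876 bases of mt-Nd4 with 0 differences, and Gm28438 matched 345 bases of mt-Nd3 with 1. Gm29216 matched the last 492 bases of mt-Co1 with 6 differences, all within positions 1056 to 1066 of the gene, so the copy is identical from there to the end. The pair below shows positions 1054 to 1113 of mt-Co1 and the copy, counted from the first base of the gene, with differing bases in capitals. The sequences are from GENCODE M21 transcripts.
mt-Co1: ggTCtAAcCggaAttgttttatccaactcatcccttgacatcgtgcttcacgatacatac
Gm29216: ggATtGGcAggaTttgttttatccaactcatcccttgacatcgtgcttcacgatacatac

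For nuclear members, promoters of 250 bases before to 50 bases after a gene's start were read from RefSeq on GRCm38.p6, where 79 of 99 members had an entry. Motifs were searched on both strands as exact letters. The NRF1 motif, GCGCA and GCGC with any 1 base between them, is bound by nuclear respiratory factor 1, an activator of respiratory chain genes. CCGGAAG is a core bound by ETS factors such as GABP, and AAGATGGCG a core bound by YY1. NRF1 letters were in the promoters of 24.1% of the 79 members, 12.6% of 7601 measured protein-coding genes and 5.19% of 27025 genes in the table. ETS letters were in 27.8%, 21.1% and 9.93%, and YY1 letters in 10.1%, 4.13% and 1.64%, in the same order. Of the 62 common subunits with an entry, the median log2 ratio was -0.09 for the 17 with NRF1 letters and -0.24 for the 45 without. It was -0.24 for the 16 with ETS letters and -0.20 for the 46 without. The 3 promoters below are those of the member past the size rule downward (Ndufa1), of the most abundant nuclear subunit of complex IV (Cox8a) and of the complex II subunit with the highest ratio (Sdhd). Capitals mark NRF1 or ETS letters, the ETS core being read there on the other strand, and sequences run 5′ to 3′ along the gene. They lie on the minus strand at chrX:37191189-37191488, chr19:7217567-7217866 and chr9:50603800-50604099.
Ndufa1: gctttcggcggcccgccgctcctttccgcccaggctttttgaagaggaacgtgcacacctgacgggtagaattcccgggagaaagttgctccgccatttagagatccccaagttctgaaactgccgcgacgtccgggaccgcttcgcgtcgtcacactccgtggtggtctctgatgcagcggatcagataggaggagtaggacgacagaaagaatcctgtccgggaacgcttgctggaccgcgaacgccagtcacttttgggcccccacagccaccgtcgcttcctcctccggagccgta
Cox8a: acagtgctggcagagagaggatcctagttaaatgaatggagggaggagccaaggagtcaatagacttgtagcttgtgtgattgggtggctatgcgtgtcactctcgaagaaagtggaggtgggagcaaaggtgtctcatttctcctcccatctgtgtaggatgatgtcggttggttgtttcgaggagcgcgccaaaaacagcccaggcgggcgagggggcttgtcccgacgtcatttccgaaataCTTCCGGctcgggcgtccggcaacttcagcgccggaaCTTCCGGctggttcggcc
Sdhd: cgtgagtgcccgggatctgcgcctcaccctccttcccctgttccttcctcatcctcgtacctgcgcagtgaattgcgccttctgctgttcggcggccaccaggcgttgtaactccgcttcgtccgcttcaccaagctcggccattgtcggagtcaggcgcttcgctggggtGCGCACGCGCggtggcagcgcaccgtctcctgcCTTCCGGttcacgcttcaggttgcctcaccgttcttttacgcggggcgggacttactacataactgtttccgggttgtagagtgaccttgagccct
Sdhd held an NRF1 motif at 79 bases before the start and an ETS core at 46 before it, and Cox8a held ETS cores at 5 before and 32 after. None of the 3 motifs was found in the Ndufa1 window. That window is set by the RefSeq start and lies wholly upstream of the gene's end in the deposited table, 37191163. The bases around that deposited start were not searched.

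Relative to nuclear subunits, mitochondrially encoded genes were higher in the Msx2 CKO lens than in the WT lens. The 12 mitochondrially encoded members summed to 4561 FPKM in CKO and 3752 FPKM in WT, and the 99 nuclear members to 3345 FPKM in CKO and 4401 FPKM in WT. Mitochondrial over nuclear level was thus 1.36 in CKO and 0.853 in WT, a 1.60-fold difference from which any scaling of a whole library cancels. Counted in reads in place of FPKM, the ratio was 1.24 in CKO and 0.845 in WT, 1.46-fold higher (95% counting interval 1.45 to 1.48). By median FPKM the difference was 1.16-fold. Without the 6 mitochondrial genes that share 100-base stretches with the chromosome 1 copies, it was 1.57-fold. Each of the 12 genes was higher relative to the nuclear sum, from 1.31-fold for mt-Nd6 to 2.29-fold for mt-Nd3. The level of mt-Nd6 itself had a ratio of 0.998, so its 1.31 reflects the lower nuclear sum. Abundant genes weigh most in that sum. Among them Ndufa1 was at 190 FPKM in CKO and 492 FPKM in WT, and Cox8a at 233 FPKM in CKO and 430 FPKM in WT.

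**Figure D1:**
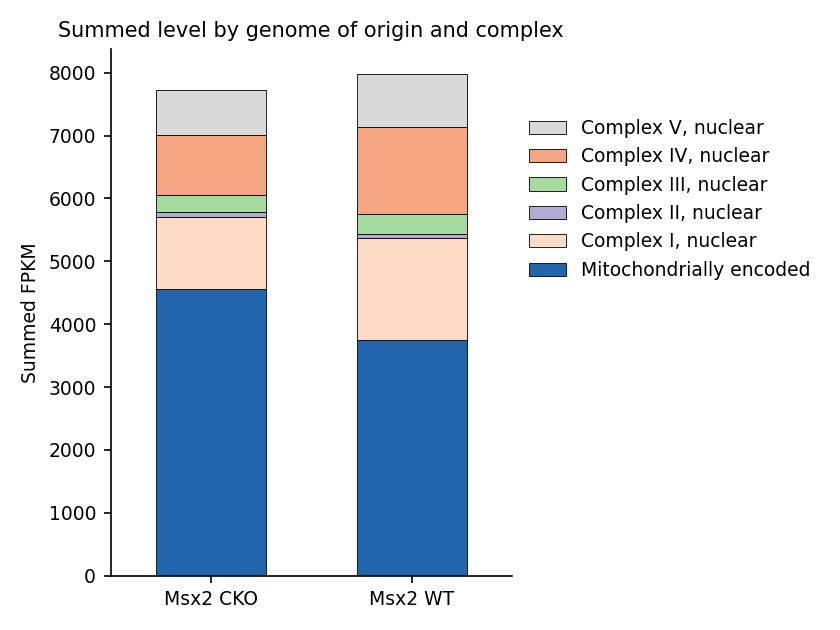
Summed FPKM of the mitochondrially encoded genes and of the nuclear common subunits of each complex, stacked, in the Msx2 CKO and Msx2 WT libraries (1 each, no error bars). The mitochondrial segment reaches 4561 FPKM in CKO and 3752 FPKM in WT, while the nuclear common subunits add 3163 FPKM in CKO and 4222 FPKM in WT.

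As shares of all reads, mitochondrially encoded members took 0.764% in CKO (exact binomial interval 0.760 to 0.768) and 0.338% in WT (0.336 to 0.341). Nuclear members took 0.617% in CKO (0.613 to 0.621) and 0.400% in WT (0.398 to 0.403). Outside crystallin reads the mitochondrial share was 1.28% in CKO and 0.882% in WT, and the nuclear share 1.03% in CKO and 1.04% in WT. So nuclear members, lower in CKO by deposited FPKM, took a larger share of all reads in CKO, while mitochondrial members took a larger share in CKO of both totals.

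By the size rule, 2 of the 107 measured members were higher in CKO (1.87%) and 1 was lower (0.935%). Among all 10757 measured genes 5.83% were higher and 2.93% lower, 8.76% in either direction against 2.80% of members. The members higher were Cox6a2 and Cox4i2 and the member lower was Ndufa1, and the other 104 lay within 2-fold. The median log2 ratio was -0.07 over all measured members, 0.32 over the mitochondrial and -0.10 over the nuclear members, beside -0.02 over all measured genes. Scaled to library totals alone these were 0.74, 1.13 and 0.71 beside 0.68. With genes filtered on those values, 22 members were 2-fold higher, 11 of them mitochondrial, and 0 were lower, while 20.3% of all measured genes were higher and 0.664% lower.

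**Figure D2:**
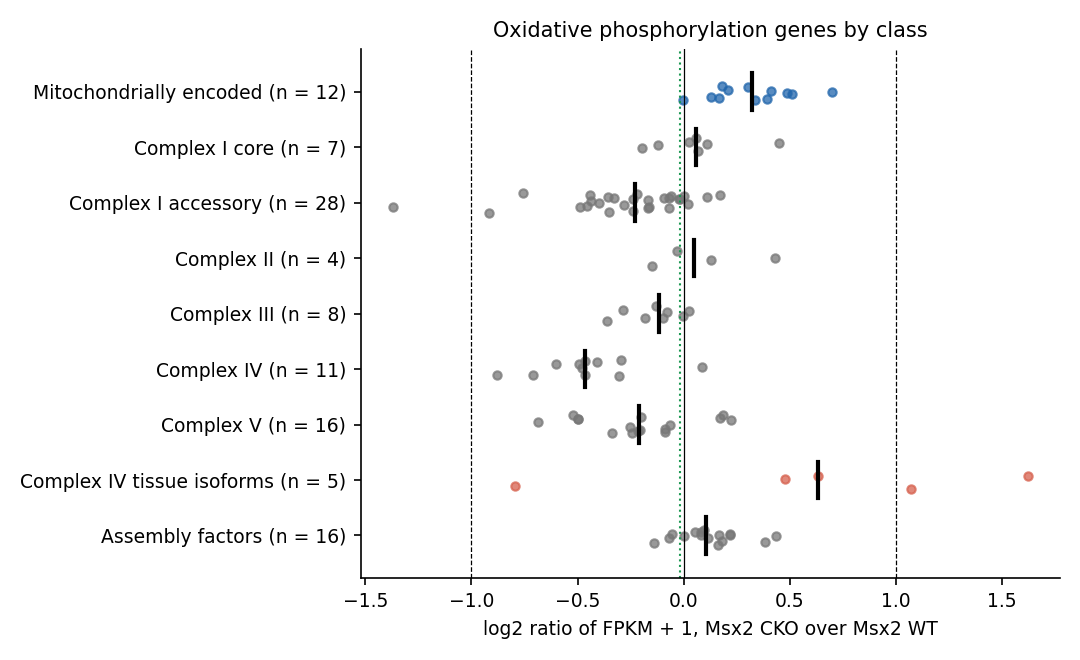
Log2 ratio of FPKM + 1 (Msx2 CKO over Msx2 WT) of each of the 107 measured members, 1 point per gene, by class. Black bars are class medians, dashed lines the 2-fold limits and the green dotted line the median of all measured genes (-0.02). The mitochondrial genes lie from -0.00 to 0.70, most nuclear subunits of complex IV below 0, and 3 genes beyond the limits.

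The proteins encoded by mitochondrial DNA are core subunits, the catalytic and proton-pumping parts of complexes I, III, IV and V. The order of the 12 genes by FPKM was identical in both libraries. mt-Co1, the catalytic subunit of complex IV, was highest, at 1221 FPKM in CKO and 929 FPKM in WT (44102 and 21924 reads), a 1.31-fold difference (1.29 to 1.34). mt-Cytb, the cytochrome b of complex III, was next at 1033 FPKM in CKO and 919.7 FPKM in WT, 1.12-fold higher (1.102 to 1.145). Both intervals exclude equality as far as counting error goes, and the difference of mt-Co1 was the larger.

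The complex I genes of mitochondrial DNA differed among themselves. mt-Nd1, the membrane subunit at the quinone site, was at 878 FPKM in CKO and 628 FPKM in WT, 1.40-fold higher (1.37 to 1.44). The pump subunits mt-Nd2, mt-Nd4 and mt-Nd5 were at 451, 389 and 292 FPKM in CKO, against 390.04, 356 and 258 FPKM in WT. Their ratios were lower than that of mt-Nd1, from 1.09 for mt-Nd4 (1.06 to 1.12) to 1.16 for mt-Nd2 (1.12 to 1.19). mt-Nd6, which lies on the minus strand while the other 11 genes lie on the plus strand, was at 205.2 FPKM in CKO and 205.7 FPKM in WT, a ratio of 0.998 (0.937 to 1.06). It was the 1 mitochondrial gene with a log2 ratio below 0.

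The remaining 5 genes stood at levels far below their neighbours in mitochondrial DNA. mt-Co2, the copper subunit of complex IV, was at 32.5 FPKM in CKO and 22.5 FPKM in WT, 1.44-fold higher (1.23 to 1.69). mt-Co3 was at 23.9 FPKM in CKO and 19.1 FPKM in WT, and mt-Atp6, the proton channel subunit of complex V, at 21.6 FPKM in CKO and 15.97 FPKM in WT. mt-Nd3 had 72 reads in CKO and 27 in WT (8.85 and 5.08 FPKM), and mt-Nd4l had 25 reads in CKO and 12 in WT (3.602 and 2.65 FPKM). The ratio of mt-Nd4l, 1.36, had an interval of 0.659 to 2.97 that holds 1. Together these 5 summed to 90.3 FPKM in CKO and 65.3 FPKM in WT.

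Of these 5 genes, 4 are those matched over nearly their whole length on chromosome 1. Of their 100-base stretches, 99.5% of mt-Co2, 99.5% of mt-Atp6, 99.9% of mt-Co3 and 97.6% of mt-Nd3 also occur in a copy. The shares were 60.8% for mt-Nd4 and 26.3% for mt-Co1, and 0% for mt-Nd1, mt-Nd2, mt-Nd5, mt-Nd6 and mt-Cytb. No annotated copy matched mt-Nd4l, which lies between mt-Nd3 and mt-Nd4. Only annotated copies were searched. The bases of chromosome 1 from 24612410 to 24612775, between the mt-Nd4 and mt-Nd3 copies, were not, so a copy of mt-Nd4l there is not excluded. The mt-Co2 copy Gm28661 was at 33.1 FPKM in CKO and 22.0 FPKM in WT, near the level of mt-Co2 itself. The mt-Atp6 copy Gm10925, at 36.5 FPKM in CKO and 24.9 FPKM in WT, and the mt-Nd3 copy Gm28438, at 24.7 FPKM in CKO and 19.7 FPKM in WT, were above the genes they match. Reads from identical stretches cannot be told apart, so their levels are uncertain, as are those of mt-Nd4 and mt-Co1 in part. How the authors treated reads with several matches is not stated in the labels. The ratios of the 5 low genes were from 1.25 to 1.74. mt-Atp8 is not analysed here.

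**Figure D3:**
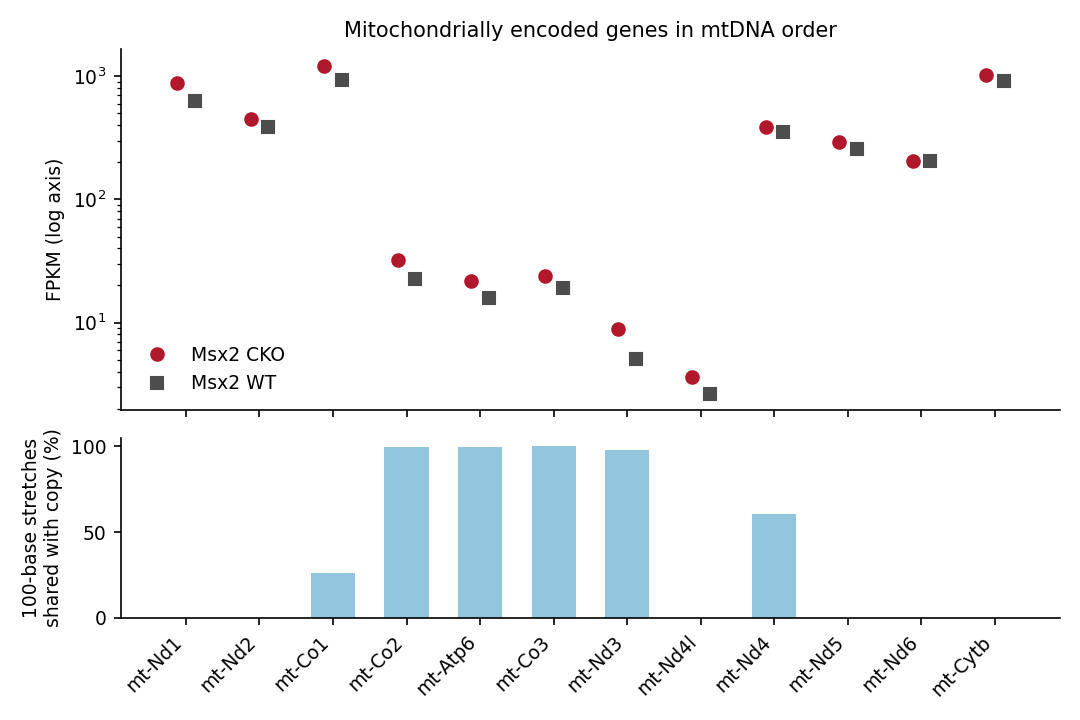
Upper panel, FPKM on a log axis of the 12 mitochondrially encoded genes in the order of mitochondrial DNA, in Msx2 CKO (circles) and Msx2 WT (squares), 1 library each. Lower panel, the percent of each gene's 100-base stretches found in the chromosome 1 copies. The 4 genes with over 97% shared, and mt-Nd4l between them and mt-Nd4, lie at or below 32.5 FPKM, the other 7 at 205.2 FPKM or more.

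Medians of nuclear complex I subunits differed between core and accessory subunits, but the classes also differed in level. Core subunits averaged 16.2 FPKM in CKO and 15.7 FPKM in WT, and accessory subunits 35.7 FPKM in CKO and 52.0 FPKM in WT. Ratios fell with level among common subunits, as given below, and role was not separated from level. The 7 nuclear core subunits, which carry the flavin and the iron-sulphur clusters or the quinone site, had a median log2 ratio of 0.06 (from -0.20 to 0.45), and 5 of the 7 lay above 0. The 28 measured accessory subunits had a median of -0.23, and 24 of them lay below 0. For this and the counts below 0 that follow, 52.2% of all measured genes and 73.8% of other protein-coding genes at 20 FPKM or more lay below 0. With library totals alone the medians were 0.91 for core and 0.61 for accessory subunits, so the sign of the second changed. That scaling moves all ratios up by similar amounts, so the order of the classes could hardly change. Ndufv1, the flavin and NADH-binding subunit, had the highest ratio, at 15.96 FPKM in CKO and 11.4 FPKM in WT, 1.40-fold higher (1.25 to 1.57). Ndufs3 was lowest of the core at 10.8 FPKM in CKO and 12.5 FPKM in WT.

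Ndufa1, a small accessory subunit of the membrane arm, was the most abundant nuclear subunit of complex I and the 1 member past the size rule downward. It was at 190 FPKM in CKO (1858 reads) and 492 FPKM in WT (3150 reads), a log2 ratio of -1.37. This was 2.60-fold lower in CKO (2.45 to 2.75). With library totals alone its log2 ratio was -0.48, still below 0 but within 2-fold. The gene lies on the X chromosome from 37187588 to 37191163 on the minus strand, coordinates of the deposited table, which match GRCm38. The other X-linked members were Cox7b, a complex IV subunit, with a log2 ratio of -0.48, and Ndufb11, of the complex I membrane arm, with -0.07. Other measured X-linked protein-coding genes had a median of 0.02 over 298 genes, 18 higher and 5 lower by the size rule. Whether the Xist and Y-linked difference between the libraries bears on Ndufa1 was not tested. Nearest to the limit but within it were Ndufa3 (-0.92), also a small complex I subunit, Cox8a (-0.88) and Ndufa4l2 (-0.79).

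Complex II and III subunits were close to the middle of all genes. Sdha, the flavoprotein of succinate dehydrogenase, was at 24.0 FPKM in CKO and 21.9 FPKM in WT. Sdhb, its iron-sulphur subunit, was at 24.7 FPKM in CKO and 27.6 FPKM in WT, and the membrane anchor Sdhc at 5.02 FPKM in CKO and 5.16 FPKM in WT. The other anchor, Sdhd, was at 17.6 FPKM in CKO and 12.8 FPKM in WT, 1.37-fold higher (1.18 to 1.60). So 2 of the 4 complex II genes lay above 0 and 2 below, and with library totals alone all 4 lay above 0. Of the 8 nuclear complex III subunits 7 lay below 0, with a median of -0.12. The ratios ran from -0.36 for Uqcr11, at 67.2 FPKM in CKO and 86.4 FPKM in WT, to 0.03 for Uqcrfs1, the Rieske iron-sulphur protein, at 23.3 FPKM in CKO and 22.8 FPKM in WT. With library totals alone all 8 lay above 0, with a median of 0.75 beside 0.68 over all measured genes.

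By medians, complex IV gave the widest gap between the genomes among the 4 complexes built from both. Its 11 nuclear common subunits had a median log2 ratio of -0.47, with 10 of 11 below 0, while mt-Co1, mt-Co2 and mt-Co3 lay at 0.39, 0.51 and 0.30. The nuclear subunits summed to 952 FPKM in CKO and 1374 FPKM in WT, and the 3 mitochondrial genes to 1278 FPKM in CKO and 971 FPKM in WT. Cox8a was the most abundant, at 233 FPKM in CKO and 430.1 FPKM in WT, 1.84-fold lower (1.76 to 1.94). Cox6a1 was at 183 FPKM in CKO and 253 FPKM in WT, and Cox7c at 92.6 FPKM in CKO and 123 FPKM in WT. Ndufa4, now counted as a subunit of complex IV, was at 56.5 FPKM in CKO and 92.96 FPKM in WT. The exception was Cox4i1, a regulatory subunit that contacts mt-Co1, at 115 FPKM in CKO and 109 FPKM in WT, a ratio of 1.06 (1.01 to 1.11). With library totals alone all 11 lay above 0, with a median of 0.39 beside 0.68 over all measured genes.

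ATP synthase genes spanned both directions, and their ratios overlapped between parts of the enzyme. The catalytic subunit gene Atp5b was at 108 FPKM in CKO and 125 FPKM in WT, and its partner Atp5a1 at 73.4 FPKM in CKO and 65.0 FPKM in WT. The stalk subunit genes Atp5c1, Atp5d and Atp5e had log2 ratios of -0.09, -0.25 and -0.52. Of the membrane part, Atp5k was lowest, at 41.8 FPKM in CKO and 67.9 FPKM in WT, 1.62-fold lower (1.45 to 1.82), and Atp5l, the most abundant nuclear gene of the complex, was at 127 FPKM in CKO and 161 FPKM in WT. In all, 13 of the 16 nuclear genes lay below 0, with a median of -0.21, while with library totals alone all 16 lay above 0, with a median of 0.61.

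Atp5g1, Atp5g2 and Atp5g3 encode the same mature c subunit of the membrane ring with different import sequences. Atp5g1 was at 8.85 FPKM in CKO and 10.5 FPKM in WT, Atp5g2 at 22.97 FPKM in CKO and 19.6 FPKM in WT, and Atp5g3 at 26.3 FPKM in CKO and 22.97 FPKM in WT. Of the reads of the 3 genes, 31.2% were of Atp5g1 in CKO (29.6 to 32.8) and 38.3% in WT (36.2 to 40.4). Atp5g2 took 27.6% in CKO and 24.4% in WT, and Atp5g3 41.1% in CKO and 37.3% in WT. So by reads Atp5g3 came first in CKO and Atp5g1 in WT, there with overlapping intervals. Per length the part of Atp5g1 was 15.2% in CKO and 19.7% in WT. By FPKM, which divides by gene length, the order of the 3 genes was Atp5g3, Atp5g2, Atp5g1 in both libraries.

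Short, abundant genes had the lower ratios among nuclear common subunits. The 22 with a gene length under 1000 bases had a median log2 ratio of -0.27, the 26 from 1000 to under 2000 bases -0.18 and the 26 measured of 2000 bases or more -0.13. With library totals alone the medians of these classes, from short to long, were 0.60, 0.64 and 0.67. Across the 74 measured common subunits the log2 ratio correlated with log2 length at Pearson 0.30 and Spearman 0.26, and with log2 mean FPKM at -0.45 and -0.41. Genes are not independent replicates, and these points share 2 libraries. Over 9733 other measured protein-coding genes the correlations were -0.09 and -0.12 with length, and -0.21 and -0.26 with level. Other protein-coding genes at 20 FPKM or more had a median log2 ratio of -0.21 (1100 genes), and those of them under 1000 bases -0.19 (121 genes). The median over all common subunits, whatever their level, was -0.20, beside -0.01 over all other measured protein-coding genes. Many common subunits were under 20 FPKM, so this median and that of the abundant genes are not matched for level. The nuclear common subunits of complex IV were all at 20.96 FPKM or more in both libraries, and their median of -0.47 was lower than that of the abundant genes.

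Of the 6 tissue-restricted isoforms of complex IV subunits, 5 were low in both libraries and had higher values in CKO, and Ndufa4l2 was neither. Other low members also tended to lie above 0, as did 17 of the 19 measured nuclear members with a mean under 5 FPKM, isoforms included. The isoforms replace a common subunit in particular tissues: Cox6a2, Cox7a1 and Cox8b in heart and skeletal muscle, Cox4i2 in lung and pericytes and Cox6b2 in testis. Cox6a2 had 33 reads in CKO and 0 in WT (2.08 FPKM and 0 FPKM), at least 7.19-fold higher against a floor of 3 reads in WT. That floor leaves out the counting error of the CKO reads, and the exact interval, which holds it, starts at 5.52. Cox4i2 was at 4.07 FPKM in CKO (75 reads) and 1.41 FPKM in WT (17 reads), 2.88-fold higher (1.69 to 5.21). Both passed the size rule, but Cox6a2, with a mean of 1.04 FPKM, was measured only through CKO. They stayed past it under the 3 other scalings, which could hardly have changed these calls. Library totals and totals without crystallins move CKO over WT ratios upward, and median of ratios is nearly the deposited scaling.

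The counting intervals of the remaining isoforms differed in width. Cox6b2 was at 3.67 FPKM in CKO (95 reads) and 2.01 FPKM in WT (34 reads), 1.83-fold higher (1.22 to 2.79). Cox7a1, below the level to be measured, had 20 reads in CKO and 3 in WT, a ratio of 4.36 (1.29 to 22.9). Cox8b had 14 reads in CKO and 5 in WT, a ratio of 1.83 with an interval of 0.623 to 6.49 that holds 1. Ndufa4l2, a Ndufa4 paralogue induced by hypoxia, went the other way, at 11.2 FPKM in CKO and 20.2 FPKM in WT, 1.80-fold lower (1.51 to 2.14).

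Set against its common partner, each of these isoforms other than Ndufa4l2 made up a small share of its family, larger in CKO. Partners Cox6b1 and Cox7a2 were at 72.7 and 65.0 FPKM in CKO, against 90.02 and 91.9 FPKM in WT. Of COX4 reads, Cox4i2 took 1.76% in CKO (1.39 to 2.21) and 0.657% in WT (0.383 to 1.05). Of COX6B reads, Cox6b2 took 7.32% in CKO (5.96 to 8.87) and 3.38% in WT (2.35 to 4.69). Cox6a2 took 1.09% of COX6A reads in CKO (0.749 to 1.52), and 0% in WT, with an exact interval that reaches 0.136%. Ndufa4l2 took 12.1% of reads with Ndufa4 in CKO (10.8 to 13.6) and 13.1% in WT (11.8 to 14.6), intervals that overlap. The muscle list summed to 163 FPKM in CKO and 201 FPKM in WT, of which Acta2, a smooth muscle actin, made up 160.2 FPKM in CKO and 197 FPKM in WT. Of its 3 measured genes, Pvalb was lower and Acta2 and Tagln lay within 2-fold. Skeletal muscle markers were near 0: Ckm was at 0.573 FPKM in CKO and 0.607 FPKM in WT, Myh4 had 2 reads in CKO and 1 in WT, Acta1 had 3 reads in CKO and 0 in WT, and Atp2a1 had 6 reads in CKO and 0 in WT. Of 4 measured endothelium and pericyte markers 1 was higher, Kdr, itself under 1 FPKM in WT, and the list summed to 17.9 FPKM in CKO and 16.9 FPKM in WT. Its pericyte genes went both ways, Pdgfrb at 7.796 FPKM in CKO and 14.2 FPKM in WT, and Rgs5, below the level to be measured, at 0.725 FPKM in CKO and 0.101 FPKM in WT. Retinal markers were higher in CKO as given above, and their part in these isoforms was not tested.

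**Figure D4:**
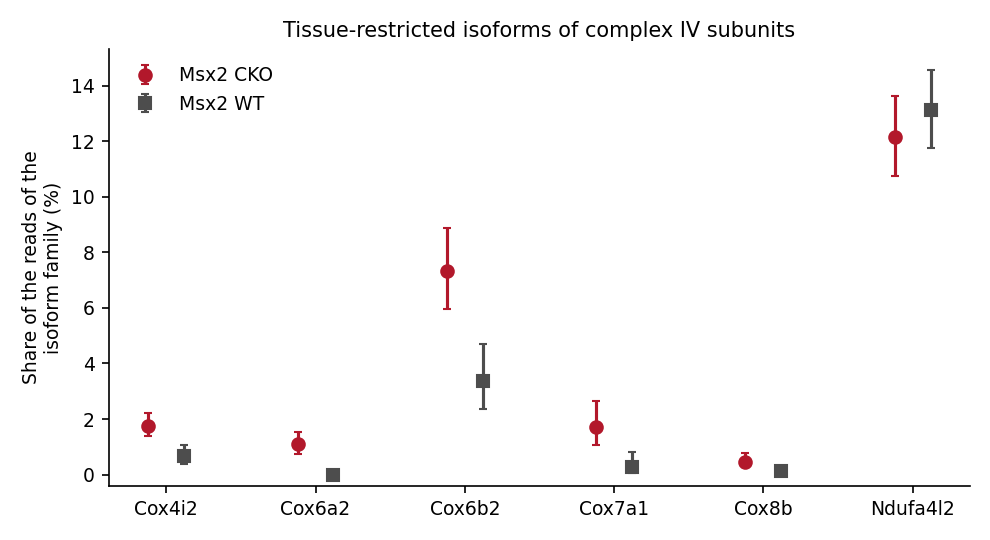
Share of the reads of an isoform family (percent) taken by each tissue-restricted isoform in Msx2 CKO (circles) and Msx2 WT (squares), 1 library each, with exact binomial 95% intervals for counting error. The CKO share is the higher for Cox4i2, Cox6a2, Cox6b2, Cox7a1 and Cox8b, the intervals of Cox8b and Ndufa4l2 overlapping, and Ndufa4l2 is at 12.1% in CKO and 13.1% in WT.

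Assembly factors, which help build the complexes without being part of them, sat just above 0. Of the 16 measured, 13 lay above 0 and 3 below, with a median log2 ratio of 0.10, against -0.20 for the common subunits. With library totals alone the medians were 0.79 for assembly factors and 0.62 for common subunits. They were also expressed at lower levels, summing to 157 FPKM in CKO and 154 FPKM in WT over 18 genes. The complex I factor Ndufaf5 was highest, at 3.28 FPKM in CKO and 2.16 FPKM in WT, 1.52-fold higher (1.11 to 2.09), and Ndufaf2 lowest of its group at 10.3 FPKM in CKO and 10.9 FPKM in WT. Among complex IV factors, Cox11, which delivers copper, was at 3.79 FPKM in CKO and 3.22 FPKM in WT. Another annotated gene, Tom1l1, overlaps 48.3% of its exonic bases. Cox14, which acts in the synthesis of mt-Co1, was at 42.8 FPKM in CKO and 47.2 FPKM in WT. Values of Cox20, Ndufaf2 and Cox16 are uncertain, since other annotated genes overlap 91.1%, 65.6% and 56.8% of their exonic bases and the use of strand in counting is not given. Cox16 had 9 reads in CKO and 3 in WT, and with Cox17 (58 and 44 reads) and Ndufb2 (100 and 38 reads) it was among the 4 members below the level to be measured, Cox7a1 being the other.

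Genes around the pathway were read in 8 lists, chosen with earlier results of these data known, with 211 measured genes. By the size rule 4 of the 211 were higher in CKO and 0 lower, beside 5.83% and 2.93% of all measured genes. Creatine kinases made up 3 of the 4, enzymes that carry high-energy phosphate from mitochondria to the cytosol. Ckmt1, a mitochondrial form, was at 3.50 FPKM in CKO (204 reads) and 0.0787 FPKM in WT (3 reads), a ratio of 44.4 (14.99 to 217), and was measured only through CKO. Ckb, the brain-type cytosolic form, was at 127 FPKM in CKO and 38.8 FPKM in WT, 3.29-fold higher (3.06 to 3.54), and Ckmt2 at 6.42 FPKM in CKO and 1.54 FPKM in WT, 4.16-fold higher (2.91 to 6.13). Photoreceptors and neurons express creatine kinases, as background, and photoreceptor markers summed to 1252 FPKM in CKO and 72.5 FPKM in WT. The part of these cells in the 3 values was not tested. The fourth gene, Chchd10, a protein of the intermembrane space, was at 17.1 FPKM in CKO and 7.53 FPKM in WT, 2.27-fold higher (1.83 to 2.84).

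The carrier and supply genes were otherwise close to even. Cytochrome c, Cycs, was at 6.83 FPKM in both libraries (543 reads in CKO and 355 in WT), a ratio of 0.999 (0.873 to 1.15). The ATP exporter Slc25a4 was at 177 FPKM in CKO and 192 FPKM in WT. All 25 measured genes of the TCA cycle and pyruvate dehydrogenase lay within 2-fold, with a median of 0.02. The highest ratio was that of the phosphatase Pdp1, at 1.63 FPKM in CKO and 0.523 FPKM in WT, 3.12-fold higher (2.17 to 4.60). It lay within 2-fold only on the scale of FPKM + 1 (log2 ratio 0.79), and was measured only through CKO. All 8 measured coenzyme Q synthesis genes also lay within 2-fold, with a median of 0.03, from Coq9 (-0.22) to Coq10b (0.46). So did all 75 measured mitochondrial ribosomal protein genes, with a median of 0.01, from Mrps26 (-0.60) to Mrpl40 (0.56). The 27 measured import genes had a median of -0.04, from Timm8a1 (-0.40) to Tomm22 (0.37). So the nuclear genes that make the mitochondrial ribosome lay at 0.01, between the mitochondrially encoded genes at 0.32 and the nuclear common subunits at -0.20.

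Most regulators of the 2 genomes were expressed at low levels, and all lay within 2-fold where measured. Tfam, which packages mitochondrial DNA and starts its transcription, was at 2.89 FPKM in CKO and 2.80 FPKM in WT, a ratio of 1.03 (0.857 to 1.24). All 16 measured genes of mitochondrial DNA upkeep and transcription had log2 ratios between -0.45 (Top1mt) and 0.21 (Mterf2). Nrf1 was at 1.21 FPKM in CKO and 0.930 FPKM in WT, and Gabpa, the DNA-binding subunit of GABP, at 4.78 FPKM in CKO and 6.20 FPKM in WT. The lowest and highest ratios among regulators were those of the hypoxia factor Hif1a, at 23.3 FPKM in CKO and 36.4 FPKM in WT, and of the nuclear receptor Esrra, at 7.03 FPKM in CKO and 4.798 FPKM in WT. Of the PGC-1 coactivators, which drive mitochondrial genes, Ppargc1a and Ppargc1b fell below the level to be measured. Ppargc1a had 131 reads in CKO and 61 in WT (0.850 and 0.606 FPKM), and Ppargc1b 148 reads in CKO and 17 in WT (1.59 and 0.279 FPKM), a ratio of 5.69 (3.43 to 10.03). With no minimum level Ppargc1b passed the size rule upward, and the pathway lists held 5 higher genes in place of 4. Pprc1, which was measured, was at 2.08 FPKM in CKO and 2.45 FPKM in WT. In bulk lens RNA, fewer cells of a type and less RNA per cell cannot be told apart for any of these genes.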

How the data were processed

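Gene expression was measured by mRNA sequencing of mouse lens, 1 library per genotype. Tools listed in the submitters' processing notes, with no role given, are DESeq2 1.10.1, HTSeq 0.6.0 and STAR 2.5.1b. No label states the genome build or the annotation. Values of the deposited table are FPKM per gene and library, a unit inferred from the values: each value times gene length is a whole multiple of 1 step per library (100% within 0.001 of a read). Taking the step as 1 read gave the reads used here. The effective library size was 1.36 times the reads in CKO and 0.735 times in WT, so the authors' values are scaled for composition. All 111 members were found by identifier in GENCODE M21 (GRCm38).

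Members and gene lists were chosen with earlier results of these data known. Genes named were all mitochondrial members, all past 2-fold, all isoform families, and in each complex or list the most abundant, highest and lowest. Other names were chosen after their values were seen. One gene that the rule names is not reported here. The design assumed counts or normalized values, and the rule for FPKM was used. Ratios have exact conditional binomial 95% intervals and shares exact binomial (Clopper-Pearson) ones, except the mitochondrial to nuclear ratio of reads, whose interval is normal on the log scale. The size rule was tested on simulated data. The other scalings were library totals, totals without crystallins and median of ratios. Work was done in Python 3.11.15 with pandas 2.3.3 and SciPy 1.17.1.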

Additional observations from a re-analysis of the deposited data

How the results depend on the processing

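Values here are CKO over WT. No paired analysis was possible because each genotype has 1 library, and no library could be left out. Scaled to library totals alone, 22 members were 2-fold higher and 0 lower, 31 genes of the pathway lists were higher, and the medians became 0.74 (all members), 1.13 (mitochondrial) and 0.71 (nuclear). With totals without crystallins the medians were 0.165, 0.58 and 0.14. With a minimum mean of 5 FPKM, 0 members were higher, the list count was 2 and the nuclear median -0.20. With structural subunits only, 0 members were higher and the nuclear median was -0.20, because both higher genes are tissue-restricted isoforms. Without X-linked genes, chosen after seeing the data, 0 members were lower. The mitochondrial to nuclear difference of 1.60 was 1.16 by medians and 1.46 by reads. It was 1.55 over the 5 mitochondrial genes left by a planned list of genes with nuclear copies. That list dropped mt-Nd2 and mt-Nd4l, which no annotated copy matched here, and kept mt-Nd4, which has a match of 876 bases. The difference was 1.57 without the genes sharing 100-base stretches, a setting chosen after seeing the data. Outside crystallin reads the shares were 1.28% and 0.882% (mitochondrial) and 1.03% and 1.04% (nuclear), CKO then WT. No setting turned Ndufa1 or Cox4i2 to the other side of 0, and Ndufa1 came within 2-fold (-0.48) under library totals alone. For Cox4i2 the scalings tried moved the ratio up or hardly at all. Cox6a2, with 0 reads in WT, cannot fall below 0 under any scaling. Depth limits Cox4i2 and Cox6a2, the 2 members called higher, and Cox8b, Cox7a1, mt-Nd4l and Cox16, each with 25 reads or fewer in a library.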

Other observations

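Mitochondrial RNAs outside the protein-coding set were present in both libraries. The ribosomal RNA mt-Rnr2 was at 290 FPKM in CKO (10716 reads) and 195 FPKM in WT (4717 reads), 1.48-fold higher (95% counting interval 1.43 to 1.54). The small ribosomal RNA mt-Rnr1 was at 97.9 FPKM in CKO and 61.7 FPKM in WT, 1.59-fold higher (1.47 to 1.72). The proline transfer RNA mt-Tp, encoded on the minus strand like mt-Nd6, had 169 reads in CKO and 115 in WT, a ratio of 0.960 (0.753 to 1.23), beside 0.998 for mt-Nd6. These genes were chosen after their values were seen.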
